A study of Mus musculus with 9 samples.

Results

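The genes described here are the 3 FoxO transcription factors Foxo1, Foxo3 and Foxo4, the insulin receptor Insr, the IGF-1 receptor Igf1r, the receptor substrates Irs1 and Irs2, and the ligand Igf1. They were chosen by gene symbol, and each of the 8 symbols matched 1 of the 56691 genes in the deposited table. RNA was sequenced from RAW264.7 cells, an established mouse macrophage line that forms osteoclast-like cells under RANKL, the cytokine that drives osteoclast formation. Untreated cells (Control), cells given RANKL, and cells given RANKL together with uridine (RANKL + UD) were compared after 3 days, with 3 libraries per group that the submitters call biological replicates. The labels give no uridine dose, and every value comes from this single line rather than from primary osteoclast precursors. The total count per library ranged from 15951800 to 19746862.

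Insulin and IGF-1 bind receptor tyrosine kinases, which phosphorylate IRS proteins and thereby recruit PI3K. The lipid made by PI3K activates AKT, and AKT phosphorylates FoxO proteins and keeps them out of the nucleus. In the nucleus FoxO factors act on genes of cell cycle arrest, antioxidant defence, autophagy and apoptosis, and in osteoclast precursors they are known as restraints on differentiation. Counts of RNA measure the supply of these transcripts. They carry no information on phosphorylation or on where a protein lies in the cell.

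Expression is given as FPKM, the count divided by the exonic length and by the library total. Of the 8 genes, Foxo1, Foxo3, Foxo4, Insr and Igf1 reached 1 FPKM in 3 or more of the 9 libraries, and these 5 were tested. Igf1 met that limit in the Control libraries only, so its difference from Control was built into its selection. Igf1r, Irs1 and Irs2 reached 0.01 FPKM at most and were not tested. Fold changes are edgeR log2 values after TMM scaling with their standard error (SE), and a gene was called changed at a Benjamini-Hochberg adjusted p under 0.05 over 11995 genes.

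In RANKL + UD against RANKL, Igf1, Insr and Foxo4 were lower and Foxo1 and Foxo3 were not called. That is 3 of 5 tested genes lower, where 20.2% of all genes tested were called lower. In RANKL against Control, Igf1 and Insr were lower and the 3 FoxO genes were not called, beside 30.2% of all genes called lower. In RANKL + UD against Control, Igf1, Insr, Foxo4 and Foxo1 were lower and Foxo3 was not called, beside 27.3% of all genes called lower. The first and second comparisons share the RANKL libraries, and the third shares libraries with each of them.

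**Figure D1:**
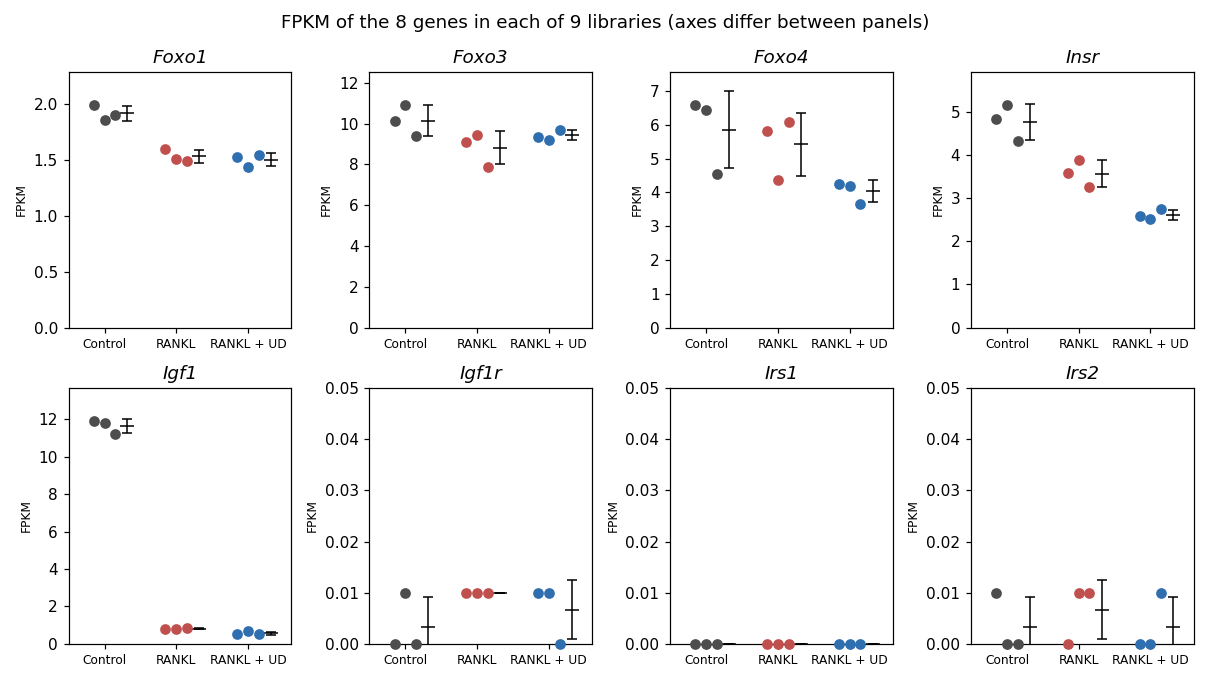
FPKM (y axis, linear from 0, scale differs between panels) of each of the 8 genes in the 3 Control, 3 RANKL and 3 RANKL + UD libraries (x axis). Points are single libraries, and the dash with bars is the mean ± SD of 3 libraries. Igf1 drops from above 11 FPKM in Control to below 1 in all other libraries, Insr steps down over the 3 groups, and Igf1r, Irs1 and Irs2 stay at 0.01 or below.

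Igf1 encodes insulin-like growth factor 1, a secreted ligand that macrophages make. The deposited table places it on chr10:87694127-87772904, plus strand. It was the highest of the 8 genes per kilobase of exon in Control and the lowest of the 5 tested genes after RANKL. The FPKM of Igf1 was 11.88, 11.81 and 11.22 in Control. It was 0.80, 0.78 and 0.85 in RANKL, and 0.50, 0.66 and 0.53 in RANKL + UD. The 3 groups did not overlap, and the lowest Control library lay more than 10 FPKM above every library that received RANKL.

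The log2 fold change of Igf1 in RANKL against Control was -3.75 (SE 0.087, adjusted p = 7.23e-19), a 13.5-fold fall. Ranked from the lowest fold change in this comparison, Igf1 stood at place 57 of the 11995 tested genes, and at place 32 in RANKL + UD against Control. Igf1 passed the FPKM limit through Control only, so these places and its adjusted p-values against Control are descriptions. With no filter on low values, its log2 fold change in RANKL against Control was -3.74. With uridine added, Igf1 was lower again, by a log2 fold change of -0.61 against RANKL (SE 0.11, adjusted p = 0.000204). Against Control, the log2 fold change with uridine was -4.37 (SE 0.093, adjusted p = 2.62e-19). The counts behind the uridine difference were small, with 149 to 162 reads in the RANKL libraries and 91 to 107 in the RANKL + UD libraries. Igf1 was called in all 18 alternatives, but the size of that difference moved with a pseudocount, to -0.21 (adjusted p = 0.0136) with limma on log2(FPKM + 1), a scale on which 1 FPKM exceeds the level of Igf1 itself.

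The antisense gene Igf1os overlaps Igf1, and whether counting used the strand is not given in the sources used here. Igf1os held 0 to 5 counts per library, so it adds little to the 91 to 2310 counts of Igf1. Across the 8 genes, 7 overlapping genes were listed, and none had more than 5 counts in any library.

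Insr encodes the insulin receptor, which also binds IGF-1 with lower affinity. Its deposited position is chr8:3172061-3329617, minus strand. Insr gave 4.82, 5.15 and 4.33 FPKM in Control. The RANKL libraries gave 3.57, 3.88 and 3.25 FPKM, and the RANKL + UD libraries 2.58, 2.51 and 2.74 FPKM. The groups formed 3 steps without overlap, with Control highest and RANKL + UD lowest. Igf1 showed the same order of groups. How many of all tested genes form 3 separate groups, or keep a pair of groups apart, was not counted. Of all tested genes, 30.2% were called lower in RANKL against Control and 20.2% in RANKL + UD against RANKL. For every gene and share given here, groups without overlap are therefore a description and were not shown to be particular to these genes.

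The log2 fold change of Insr was -0.33 in RANKL against Control (SE 0.077, adjusted p = 0.000905), or 20.6% lower. Uridine with RANKL against RANKL gave -0.54 (SE 0.080, adjusted p = 1.84e-05), or 31.0% lower. Against Control, RANKL + UD gave -0.87 (SE 0.079, adjusted p = 6.55e-09), or 45.2% lower. Insr was called in all 18 alternatives of each comparison. Its adjusted p for uridine against RANKL alone ranged over these alternatives from 5.38e-10 to 0.00701 and its log2 fold change from -0.60 to -0.34.

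Igf1r encodes the receptor through which IGF-1 mainly signals, and it was close to undetected. The deposited table gives it at chr7:67602575-67883416, plus strand, with an exonic length of 16791 bases. The Control libraries held 1, 4 and 0 counts of Igf1r. The RANKL libraries held 2, 2 and 2 counts, and the RANKL + UD libraries 3, 2 and 0. These 16 counts over 9 libraries have an exact Poisson 95% interval of 9.15 to 26.0 counts, which covers counting error only. The groups overlapped, and a difference in Igf1r was not detectable at this depth.

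Insr therefore supplied nearly all RNA of this receptor pair. Of the FPKM of Insr and Igf1r together, Insr made up 99.9% ± 0.12 in Control, 99.8% ± 0.016 in RANKL and 99.8% ± 0.19 in RANKL + UD (SD, n = 3). The ratio of Insr to Igf1 FPKM was 0.409 ± 0.026 in Control, 4.41 ± 0.58 in RANKL and 4.69 ± 0.78 in RANKL + UD (SD, n = 3). The ligand transcript exceeded the receptor transcript in every Control library and lay below it in every library given RANKL. The RANKL and RANKL + UD ratios overlapped.

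Irs1 and Irs2 encode the docking proteins that link the activated receptors to PI3K. Irs1, at chr1:82210822-82269137 on the minus strand, had 0 counts in all 9 libraries. A count of 0 allows up to 3 counts per library, which corresponds to 0.0166 to 0.0206 FPKM. Irs2, at chr8:11034681-11058458 on the minus strand, had 1, 0 and 0 counts in Control. It had 0, 1 and 1 counts in RANKL and 0, 0 and 1 in RANKL + UD, a total of 4 counts with an exact Poisson 95% interval of 1.09 to 10.2. Neither substrate gave a value from which a difference between groups could be read. For comparison, the least abundant tested FoxO gene, Foxo1, had at least 204 counts in every library.

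The bases before the annotated start of 6 of these genes were read from a RefSeq promoter table for GRCm38.p6. Insr and Foxo4 have no entry in it. Each of the 6 has a single window there, so any other start of a gene was not covered. Their order by CpG content was set beside the RNA levels because the gene with the steepest change and the genes at or near 0 differ in this feature. The 250 bases before the start held 5 CpG dinucleotides in Igf1, 20 in Foxo1, 28 in Irs1, 31 in Foxo3, 34 in Irs2 and 42 in Igf1r, where the median of 32851 windows of that length was 6. Igf1 was the only one of the 6 at or under that median. The GC content of the Igf1 window was 52.8%, beside a median of 52.4% over all windows, and that of the Igf1r window was 77.6%. CpG-rich windows belonged to genes with RNA, Foxo1 and Foxo3, and to genes at or near 0, Irs1, Irs2 and Igf1r.

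The same windows were searched on both strands for GTAAACA, an element that FoxO factors bind, and for CAAAACA, the core of the insulin response sequence. The pair of motifs share the ending AAACA but neither holds the other. GTAAACA was in none of the 6 windows and in 3.17% of all windows. CAAAACA was in 2 of the 6 windows, those of Irs1 and Irs2, and in 5.56% of all windows. It lay on the strand opposite to the gene in each case, so it reads TGTTTTG along the gene. The nearest base was 26 and 105 bases before the Irs1 start and 31 bases before the Irs2 start. The windows of Igf1, as the gene that changed most, and of both substrates, as those that hold the motif, are printed 5′ to 3′ along the gene, with the motif in capitals. They are chr10:87860861-87861110 (plus strand), chr1:82291440-82291689 (minus strand) and chr8:11008930-11009179 (minus strand) of GRCm38.p6. The deposited gene positions differ from GRCm38, so these positions cannot be set against them.
Igf1: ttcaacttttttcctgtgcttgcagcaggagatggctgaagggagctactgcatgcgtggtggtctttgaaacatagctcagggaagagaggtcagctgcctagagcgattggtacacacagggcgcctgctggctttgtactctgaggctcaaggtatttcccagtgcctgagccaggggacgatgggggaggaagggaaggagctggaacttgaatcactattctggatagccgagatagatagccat
Irs1: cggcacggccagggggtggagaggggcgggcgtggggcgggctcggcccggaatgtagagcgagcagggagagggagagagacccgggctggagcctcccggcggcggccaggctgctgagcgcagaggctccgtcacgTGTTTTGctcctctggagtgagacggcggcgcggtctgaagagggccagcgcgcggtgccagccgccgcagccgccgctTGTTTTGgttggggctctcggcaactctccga
Irs2: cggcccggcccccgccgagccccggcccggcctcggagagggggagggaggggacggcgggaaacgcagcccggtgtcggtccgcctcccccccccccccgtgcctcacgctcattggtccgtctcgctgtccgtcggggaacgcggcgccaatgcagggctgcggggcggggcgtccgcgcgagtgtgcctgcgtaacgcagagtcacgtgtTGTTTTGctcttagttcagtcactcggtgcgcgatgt
A match of letters in these windows is a description of the sequence, and binding was not measured.

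The FoxO factors bind the same core element and differ in abundance here. Foxo3 was the highest of them per kilobase of exon in every library, followed by Foxo4 and Foxo1. Foxo3 made up 56.7% ± 2.6 of the summed FPKM of the 3 genes in Control, 55.9% ± 5.4 in RANKL and 62.9% ± 1.8 in RANKL + UD (SD, n = 3). Foxo4 made up 32.5% ± 3.3, 34.3% ± 5.5 and 27.0% ± 2.1 in the same order. Foxo1 made up 10.8% ± 1.1, 9.72% ± 0.12 and 10.1% ± 0.32. The share of Foxo3 was at least 61.8% in RANKL + UD and at most 61.7% in RANKL, so the groups were adjacent without overlap. The fourth family member, Foxo6, had 2 counts at most in any library.

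**Figure D2:**
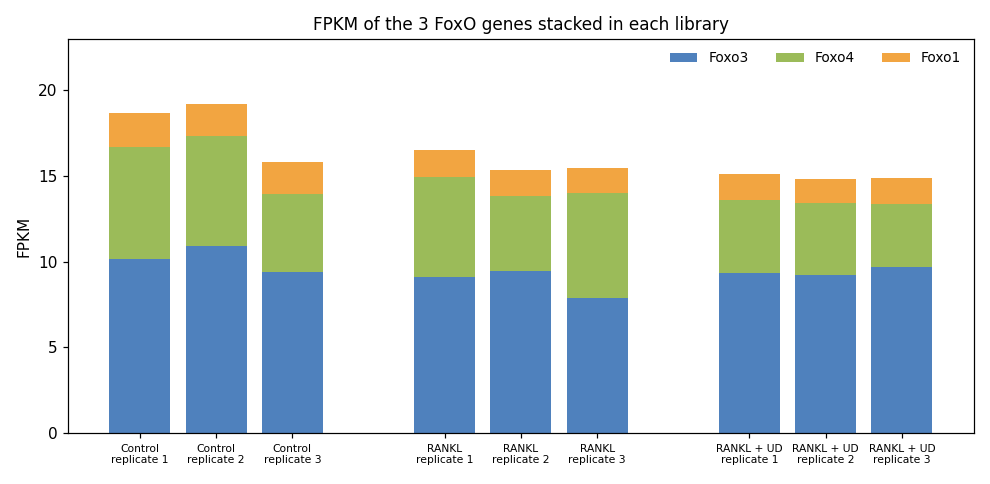
Stacked bars of the FPKM (y axis, linear from 0) of Foxo3, Foxo4 and Foxo1 in each of the 9 libraries (x axis). The summed height is 15.8 to 19.2 FPKM in Control, 15.3 to 16.6 in RANKL and 14.9 to 15.1 in RANKL + UD, and Foxo3 is the largest segment in every library.

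Foxo1, at chr3:52175757-52260642 on the plus strand, is the FoxO factor best known for hepatic glucose output. It gave 1.99, 1.86 and 1.90 FPKM in Control and 1.60, 1.51 and 1.49 in RANKL. The RANKL + UD libraries gave 1.53, 1.44 and 1.54 FPKM. All Control libraries lay above all others, whereas RANKL and RANKL + UD overlapped. The log2 fold change of Foxo1 was -0.23 in RANKL against Control (SE 0.10), and its adjusted p of 0.0584 missed the threshold. It was called in 3 of 18 alternatives, and those were the ones that scale by total counts alone, namely total counts in edgeR (adjusted p = 0.0107) and limma on FPKM with a pseudocount of 1 (adjusted p = 0.00376) or 0.1 (adjusted p = 0.00139). Under total counts the median of all genes shifted to -0.12, and Foxo1 lay 0.21 below that median, as it did with TMM.

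In RANKL + UD against Control, Foxo1 was lower by a log2 fold change of -0.35 (SE 0.10, adjusted p = 0.00799), and it was called in all 18 alternatives. Against RANKL, the log2 fold change with uridine was -0.11 (SE 0.11, adjusted p = 0.437). The normal 95% interval of this difference was -0.32 to 0.095, so a fall of up to 0.32 or a rise of up to 0.095 on the log2 scale was not separated from 0.

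Foxo3, at chr10:42057837-42152751 on the minus strand, gave 10.13, 10.90 and 9.39 FPKM in Control. Its RANKL libraries gave 9.12, 9.45 and 7.89 FPKM and its RANKL + UD libraries 9.36, 9.21 and 9.70 FPKM. All 3 groups overlapped. Foxo3 is the FoxO factor with the clearest textbook role in apoptosis and in resistance to oxidative stress.

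Foxo3 had the smallest change of the tested genes with uridine, with a log2 fold change of 0.01 against RANKL (SE 0.070, adjusted p = 0.939) and a 95% interval of -0.13 to 0.15. Against Control, the log2 fold change was -0.11 in RANKL (SE 0.070, adjusted p = 0.167) and -0.11 in RANKL + UD (SE 0.070, adjusted p = 0.211). The RANKL value passed the threshold when Control replicate 3 was left out (-0.17, adjusted p = 0.0472) and with total counts as the scaling (-0.20, adjusted p = 0.0170). Control replicate 3 was the lowest Control library for Foxo3, Foxo4, Insr and Igf1. With 1134 to 1629 counts per library, Foxo3 was among the best counted of the 8 genes.

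Foxo4, on chrX:100298134-100304479 on the plus strand, gave 6.58, 6.44 and 4.55 FPKM in Control. The RANKL libraries gave 5.82, 4.36 and 6.09 FPKM, and the RANKL + UD libraries 4.25, 4.20 and 3.67. Control and RANKL overlapped, and the RANKL + UD libraries lay below both groups. The gap was narrow, since the highest RANKL + UD library was at 4.25 and the lowest RANKL library at 4.36 FPKM. Foxo4 had the widest spread of the 3 FoxO genes, with a coefficient of variation of 19.4% in Control and 17.2% in RANKL, where counting error alone would give 5.27% and 5.22%.

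The log2 fold change of Foxo4 in RANKL + UD against RANKL was -0.51 (SE 0.14, adjusted p = 0.00665), or 29.8% lower. The call was lost with limma on log2(FPKM + 1) (-0.34, adjusted p = 0.0981) and with a pseudocount of 0.1 (-0.40, adjusted p = 0.108), and it held in the other 16 alternatives with adjusted p from 0.000152 to 0.0453. The log2 fold change in RANKL + UD against Control was -0.54 (SE 0.14, adjusted p = 0.00296). For RANKL against Control it was -0.03 (SE 0.14, adjusted p = 0.883), and its sign turned when Control replicate 1, Control replicate 2 or RANKL replicate 2 was left out. A change of Foxo4 under RANKL alone was not separated from 0, and its 95% interval ran from -0.29 to 0.24.

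**Figure D3:**
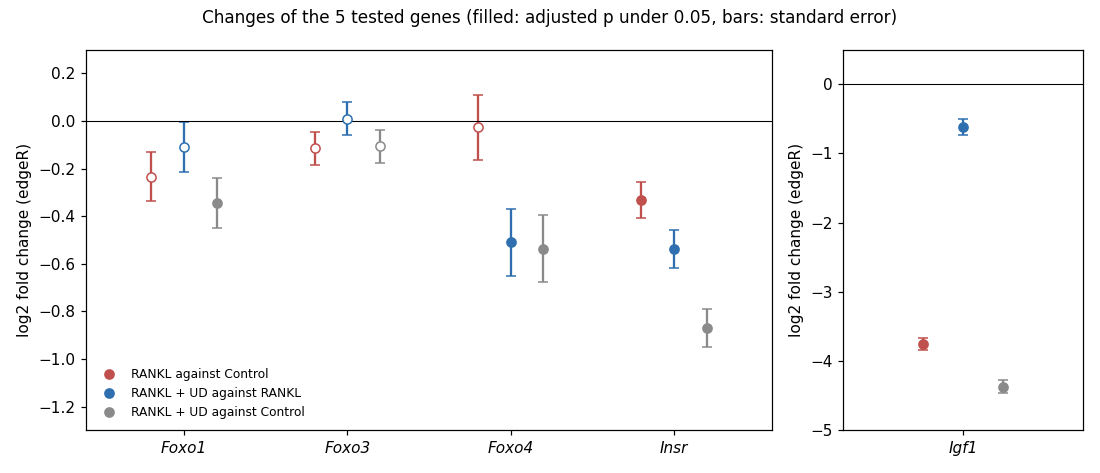
Log2 fold changes from edgeR (y axis) of Foxo1, Foxo3, Foxo4 and Insr (left) and of Igf1 (right, wider scale) in the 3 comparisons, with bars of 1 standard error and filled points for an adjusted p under 0.05. Insr and Igf1 are filled in every comparison, Foxo4 in those with RANKL + UD, Foxo1 only in RANKL + UD against Control, and Foxo3 in none.

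Within Control, the order of levels per kilobase of exon was Igf1, Foxo3, Foxo4, Insr, Foxo1 and then the 3 genes near 0. Igf1 (11.22 to 11.88 FPKM) and Foxo3 (9.39 to 10.90) did not overlap, whereas Foxo4 (4.55 to 6.58) and Insr (4.33 to 5.15) did. In RANKL and in RANKL + UD the order was Foxo3, Foxo4, Insr, Foxo1 and Igf1, and no neighbours in it overlapped. Among the tested genes, the mean FPKM of Foxo3 exceeded that of 58.9% to 60.1% of genes in the 3 groups. Igf1 exceeded 64.3% of tested genes in Control, 4.73% in RANKL and 1.84% in RANKL + UD. Insr moved from 37.1% in Control to 33.0% in RANKL and 24.3% in RANKL + UD.

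The median log2 fold change of the 5 tested genes was -0.51 in RANKL + UD against RANKL, where that of all tested genes was 0.005. The corresponding values were -0.23, beside -0.03, in RANKL against Control and -0.54, beside -0.002, in RANKL + UD against Control. Each of these medians covers only 5 genes and includes Igf1, whose difference from Control was built into its selection. The ranking of the 5 genes differed between comparisons. Igf1 fell most in each, while Foxo4 changed least in RANKL against Control and lay next to Insr in RANKL + UD against RANKL.

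**Figure D4:**
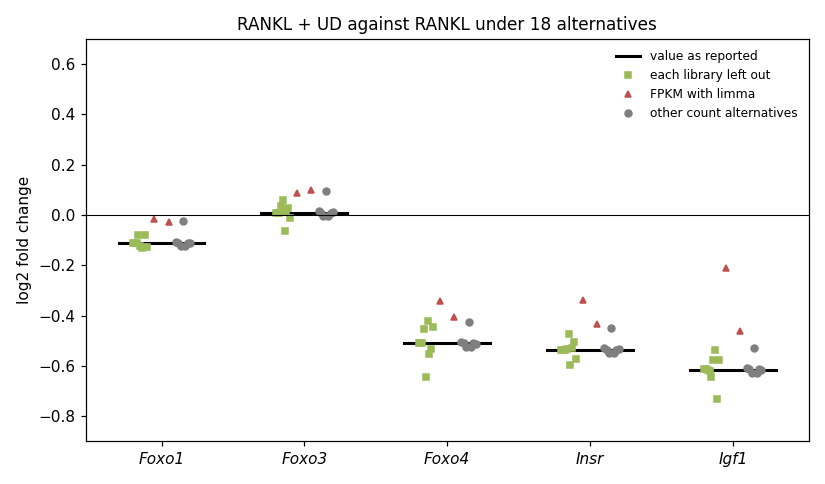
Log2 fold change (y axis) of each tested gene in RANKL + UD against RANKL, as reported (black line) and under 18 alternatives (points), of which 9 leave out a library and 2 use limma on FPKM. Every point of Foxo4, Insr and Igf1 lies below 0, every point of Foxo1 lies between -0.13 and -0.02, and the points of Foxo3 lie on both sides of 0.

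The osteoclast and macrophage markers moved with these groups. The summed FPKM of 11 osteoclast markers was 61.8 to 65.9 in Control, 2813 to 3023 in RANKL and 1855 to 1892 in RANKL + UD. That of 11 macrophage markers was 9782 to 10370, 2840 to 3104 and 2472 to 2597. Of the tested osteoclast markers, 10 of 10 were higher in RANKL against Control, beside 27.3% of all genes called higher. In RANKL + UD against RANKL, 9 of 10 were lower, beside 20.2% of all genes. Of the tested macrophage markers, 8 of 10 were lower in each of these comparisons, beside 30.2% and 20.2%. Mmp9, Oscar and Itgb3 were under 1 FPKM in every Control library, so their rise with RANKL was built into their selection. Itgb3 reached 1 FPKM in the RANKL libraries only, so its fall with uridine was too. Igf1 and Insr fell in the same comparisons as most macrophage markers, and the part of the cells' differentiation state in their values was not tested. The share of counts on mitochondrial genes also differed from Control, at 3.67% to 4.03% in Control, 4.46% to 4.71% in RANKL and 4.49% to 4.70% in RANKL + UD, and its part in the differences from Control was not tested. In bulk RNA, fewer cells that express a gene and less of its RNA per cell cannot be told apart. Defining markers of osteoblasts and fibroblasts, lymphocytes, epithelial and erythroid cells summed to less than 1 FPKM per list in every library, and 0 of these 21 genes reached the limit for testing.

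Likeness to other genes was measured by Pearson's r of log2 CPM (counts scaled by library total and TMM factor) over the 9 libraries, which carries the differences between the 3 groups and is given as a description. The genes most like Igf1 were Cxcl16 (r = 0.998), Cd14 (0.998) and Rasgrp3 (0.998), and 676 tested genes had an r over 0.95 with Igf1. For Insr they were Tnks1bp1 (r = 0.984), Slc36a4 (0.982) and Pcmtd1 (0.982), and 102 genes had an r over 0.95. For Foxo1 they were Sike1 (r = 0.978), R3hcc1l (0.976) and Stau1 (0.973), again with 102 genes over 0.95. Foxo3 and Foxo4 had no gene with an r over 0.95. The nearest to Foxo3 were Gm44206 (r = 0.942), Gm19221 (0.928) and Gm38372 (0.921), and the nearest to Foxo4 were Tceanc2 (r = 0.948), Scamp5 (0.944) and a gene annotated as 5S rRNA (0.944). Each is the top of a search over all tested genes with 9 libraries. How high an r unrelated genes would reach in such a search was not tested.

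The rest of the pathway was read from 9 lists of 106 genes, of which 78 were tested. With uridine against RANKL alone, 28 of the 78 were lower, 14 higher and 36 not called, beside 20.2% lower and 18.6% higher among all tested genes. This split depended on the scaling, and was 19 lower and 21 higher with total counts alone, which moved the median of all genes up by 0.09 in log2. By list, total counts alone gave 2 lower and 2 higher adaptors, 2 lower and 3 higher PI3K subunits, 0 lower and 1 higher kinase, and 3 lower and 2 higher brakes, and RLE size factors gave 2 lower and 0 higher kinases and 5 lower and 3 higher FoxO regulators. For RANKL against Control, 33 were lower, 24 higher and 21 not called, beside 30.2% and 27.3% of all genes. For RANKL + UD against Control, 36 were lower, 16 higher and 26 not called, beside 27.3% and 26.7%. The lower genes of both comparisons with Control include Sgk1, at 1.55 to 1.86 FPKM in Control. It was at most 0.61 in RANKL and 0.53 in RANKL + UD, so its fall was built into its selection. Values in brackets in the next paragraphs are log2 fold changes of called genes unless a p is given.

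Of the other ligands and receptors, only Igf2r was tested, while Igf2, Ins1 and Ins2 had 0 counts in all 9 libraries. Igf2r, the receptor that clears IGF-2 and carries lysosomal enzymes, was higher in RANKL against Control (log2 fold change 1.68, SE 0.053, adjusted p = 9.75e-17) and lower with uridine (-0.17, SE 0.051, adjusted p = 0.0120), a call lost with total counts alone (adjusted p = 0.211). Of 7 IGF-binding proteins, only Igfbp4 was tested. Igfbp4, which holds IGF-1 and limits its access to the receptor, was lower in RANKL against Control (-2.16, SE 0.092, adjusted p = 1.89e-14) and was not called with uridine (0.10, adjusted p = 0.457). Like Igf1 it was far higher in Control (17.4 ± 0.95 FPKM, SD, n = 3) than in RANKL (3.68 ± 0.29) or RANKL + UD (4.21 ± 0.55).

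Of 10 other adaptors that carry receptor signals, Irs3, Irs4 and Gab1 were not tested, with at most 6 counts in any library, and 7 were. Of these 7, 3 were lower, 1 higher and 3 not called in RANKL + UD against RANKL, with a median log2 fold change of -0.12. The called adaptors were Gab2 (-0.44), Shc1 (-0.23), Crkl (0.24) and Grb2 (-0.16), the last of which links receptors to Ras and was not called with total counts alone (adjusted p = 0.247). With RANKL against Control, Gab2 was higher (0.80) and Crk, a related adaptor, lower (-0.30).

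All 11 PI3K subunits were tested, and 4 were lower, 3 higher and 4 not called in RANKL + UD against RANKL (median -0.06). The catalytic subunits Pik3cb (-0.72) and Pik3ca (-0.31) were lower, and the regulatory subunit Pik3r1 (0.26) and the leukocyte catalytic subunit Pik3cd (0.30) were higher. RANKL against Control gave a higher Pik3cb (1.05) and a lower Pik3cg (-1.59), the catalytic subunit downstream of G proteins. Of 11 AKT, SGK and mTOR kinases, 2 were lower, 1 higher and 8 not called with uridine (median -0.07). Akt2 (-0.25) was lower, Akt1 (0.15) was higher, and Pdpk1, which activates AKT, was at 0.02 (adjusted p = 0.759). The calls of Akt1 and Akt2 did not hold under every scaling, since Akt2 (adjusted p = 0.0948) missed the threshold with total counts alone and Akt1 with RLE size factors (adjusted p = 0.0623) and DESeq2 (adjusted p = 0.0677), with the sign kept in each. Sgk3 (-0.69) was lower in RANKL against Control.

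Of 11 tested brakes on the pathway, 4 were lower, 1 higher and 6 not called in RANKL + UD against RANKL (median -0.05). Trib3, a pseudokinase that binds AKT, was lower (-2.81), as were the insulin receptor phosphatase Ptpn1 (-0.28) and the adaptor Sh2b3 (-0.26), and the AKT phosphatase Phlpp2 was higher (0.55). Under RANKL against Control, Socs3, a feedback inhibitor of cytokine and insulin receptors, was lower (-3.40) and Trib3 higher (1.33). Socs3 stayed under 1 FPKM in every RANKL library and passed the limit through Control, so its fall was built into its selection. Of 18 regulators of FoxO proteins, 5 were lower, 5 higher and 8 not called with uridine (median 0.05), or 4 lower and 9 higher with total counts alone. Skp2, which marks FOXO1 for degradation, was higher (0.91), and the acetyltransferase Crebbp (-0.51), the ubiquitin ligase Mdm2 (-0.35) and the 14-3-3 protein Ywhaz (-0.26) were lower. Mdm2 (0.56) and the deacetylase Sirt1 (0.56) were higher in RANKL against Control.

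Of 27 listed FoxO target genes, 18 were tested, and 9 were lower, 3 higher and 6 not called in RANKL + UD against RANKL (median -0.16). With total counts alone, 8 were lower and 4 higher. The changes ran in both directions. Txnip, which binds thioredoxin and lowers glucose uptake, was higher (2.25), while Il7r (-2.49), the mitophagy receptor Bnip3 (-0.81) and the cell cycle inhibitor Ccng2 (-1.14) were lower. For RANKL against Control, 9 were lower, 6 higher and 3 not called (median -0.20), with Txnip lower (-3.003) and Bnip3 higher (1.43). Txnip gave 339 ± 9.1 FPKM in Control, 39.8 ± 1.4 in RANKL and 201 ± 4.6 in RANKL + UD (SD, n = 3).

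**Figure D5:**
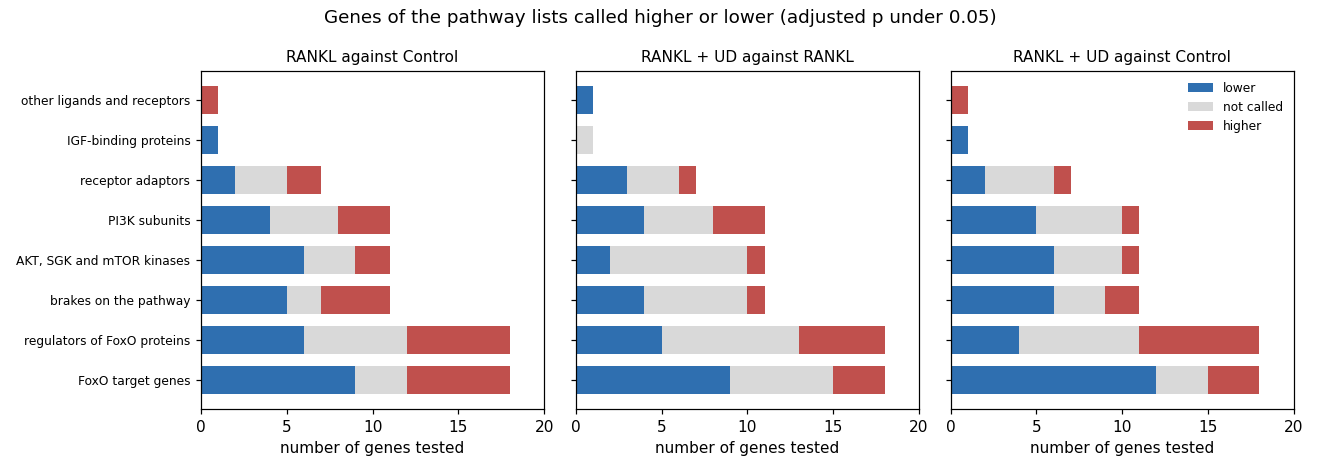
Number of tested genes (x axis) of each pathway list called lower (blue), not called (grey) or higher (red) at an adjusted p under 0.05, in the 3 comparisons. Of the 18 tested FoxO target genes, 9, 9 and 12 were lower and 6, 3 and 3 higher. Of all tested genes, 30.2%, 20.2% and 27.3% were lower and 27.3%, 18.6% and 26.7% higher. The length of a bar also depends on the number of tested genes in its list.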

How the data were processed

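RNA of 9 RAW264.7 libraries was analysed from a table of 56691 genes. The authors deposited raw counts of reads per gene and, computed from them, FPKM values scaled by exonic length and library total. The FPKM recomputed from both agreed to 0.01 for 100.0% of values. Libraries were made from poly(A) RNA with a strand-marking kit, per the labels. The submitters' processing notes name mm10, another name of GRCm38. In the GRCm38 annotation, 0 of the 8 genes and 1472 of 52073 shared genes have identical coordinates. Gene coordinates are therefore printed as deposited, and which build they follow was not settled. The aligner and counting tool are not given in the sources used here. The columns named for the model group were taken as the RANKL libraries, and all 18 value columns matched a library.

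Counts were tested with edgeR 4.0.16 in R 4.3.3 by the quasi-likelihood test with TMM scaling (factors 0.959 to 1.03) in a single model of the 9 libraries, with Benjamini-Hochberg adjustment over the 11995 genes that reached 1 FPKM in 3 or more libraries. SEs are the log2 fold change divided by the square root of its F statistic. DESeq2 1.42.0 and limma 3.58.1 served as alternatives. The fits were also run on simulated counts with far fewer changed genes than were called here. That run is not a measure of their error in these data. Libraries of a group differed by more than sampling noise (chi-square per degree of freedom 2.83 to 8.22), so none were merged. The p-values set each difference between groups against the spread between libraries of a group, estimated over all 9 libraries. The members and the lists were chosen with earlier results of these data known. All 8 members are named, with, from each list, up to 4 called genes with the smallest p in RANKL + UD against RANKL and up to 2 in RANKL against Control, Akt1, Akt2, Pik3r1, Pik3ca and Pdpk1, and the 3 genes most like each tested member. Foxo6, Igf1os, Irs3, Irs4, Gab1, Igf2, Ins1, Ins2, Mmp9, Oscar, Itgb3 and Sgk1 were named after their values were seen. Single results of some genes under this rule are not reported here.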

Additional observations from a re-analysis of the deposited data

How the results depend on the processing

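The 18 alternatives were no filter on low values, filterByExpr, RLE size factors, total counts alone, DESeq2, limma on log2(FPKM + 1) and on log2(FPKM + 0.1), a fit of the 6 libraries compared, a replicate block, and each of the 9 libraries left out. They gave 270 member values, of which 256 kept their direction and side of the threshold, 5 passed it in addition, 2 lost it (Foxo4 with limma) and 7 turned sign. The 7 were values not called in either fit, and the cause was not tested. Foxo4 in RANKL against Control went to 0.066 without Control replicate 1, to 0.045 without Control replicate 2 and to 0.11 without RANKL replicate 2, within a range of -0.17 to 0.11 over the 9 fits that leave out a library. Foxo3 in RANKL + UD against RANKL went to -0.0041 with RLE size factors, to -0.0041 with DESeq2, to -0.065 without RANKL replicate 3 and to -0.012 without RANKL + UD replicate 3, within a range of -0.065 to 0.059 over those 9 fits. With total counts alone, 4 members were called in RANKL against Control in place of 2, as Foxo1 and Foxo3 joined. That scaling also moved the share of higher genes among all called genes from 47.5% to 36.8% in RANKL against Control and from 48.0% to 66.2% in RANKL + UD against RANKL.

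No clear pairing by replicate number was seen. The correlation of deviations between libraries of the same number ran from -0.022 to 0.15, and 2 of 9 exceeded 0.1. Between libraries of different numbers it ran from -0.16 to 0.086, so a weak pairing is not excluded. With the replicate number as a block, 2, 3 and 4 members were called in RANKL against Control, RANKL + UD against RANKL and RANKL + UD against Control, the counts without it. Of all genes, 7040, 4865 and 6602 were called with the block. Without it, 6906 were called in RANKL against Control and 4651 in RANKL + UD against RANKL.
Depth limits Igf1r, Irs1 and Irs2, which had at most 4 counts in any library.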
